A study of Mus musculus with 12 samples.

Results

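The potassium channel genes of mouse retinal ganglion cells were taken as every protein-coding row of the deposited expression table whose gene name begins with Kcn. There were 95 such rows among 38887 genes, and their names alone placed them in the set. They comprised 41 voltage-gated subunits, 15 inward rectifiers, 14 two-pore channels, 8 calcium-activated channels with their relatives, and 17 accessory subunits. The values come from 12 libraries in 4 groups of 3, each library made from 30 fluorescent cells that had been picked by hand and pooled. Opn4 cells came from Opn4CreERT/+;R26-tdTomatof/f mice, in which tamoxifen-activated Cre turns on a red reporter in cells that express melanopsin, the photopigment of intrinsically photosensitive retinal ganglion cells (ipRGCs). The HB9 cells were those with green fluorescence in HB9:GFP mice, a line used to find direction-selective ganglion cells of the ON-OFF kind (ooDSGCs). The 4 groups were Opn4 crush, Opn4 sham, HB9 crush and HB9 sham. Mice of both lines received tamoxifen (0.124 mg per g of body weight on 5 days, starting at postnatal day 21), had their optic nerve crushed or a sham operation at postnatal day 42, and gave their retinas 3 days after that. Each animal gave 10 cells and 3 sets of 10 were pooled, so a library pools animals; its RNA was amplified before sequencing. Cre and the red reporter belong to the Opn4 line alone.

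Potassium channels let potassium leave the cell and so set the resting potential, end the action potential and govern how fast a neuron can fire again. Voltage-gated channels assemble from several pore-forming subunits of related genes, silent subunits join them without forming channels of their own, inward rectifiers and two-pore channels hold the membrane near rest, and calcium-activated channels follow each burst of calcium entry. In retinal ganglion cells, which send spikes down the optic nerve, Kv1 and Kv7 channels sit along the axon and its initial segment, while Kv3 channels permit rapid repetitive spiking.

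Expression is given as RPKM (reads scaled to gene length and to the size of the library). The lengths used are not given in the sources used here, so a ranking of different genes rests on a length correction that could not be checked. Log2 changes are differences of group means of log2(RPKM + 1), given ± SE from 1 limma model of all 12 libraries. Benjamini-Hochberg adjustment covered all 18269 genes that reached an RPKM of 1 in 3 or more libraries, and an adjusted p under 0.05 is called past the threshold. Where group means are given, the error is the SD with n = 3 libraries. Gene coordinates are those of the deposited table, on build mm10. Libraries had been scaled to totals of 15104446 to 28195798 reads. In pooled cells, fewer cells with a transcript and less of it per cell cannot be told apart.

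The labelled cell classes carried their markers. Opn4 itself was between 1255 and 1773 RPKM in the 6 Opn4 libraries and between 0.158 and 24.3 RPKM in the 6 HB9 libraries. Mnx1, the gene also called HB9, averaged 2.38 ± 1.09 RPKM in HB9 crush and 32.2 ± 10.5 RPKM in HB9 sham libraries (-3.30 on the log2 scale, adjusted p = 0.000471), and at most 0.144 RPKM in any Opn4 library. It was thus itself lower after crush. Opn4 crush 1 and Opn4 sham 1 lay far from the rest on the third principal component, at -61.9 and 83.8. Rod transcripts were in every library: the 15 rod markers summed to 1226 to 3526 RPKM in Opn4 crush, 854 to 2279 in Opn4 sham, 671 to 1073 in HB9 crush and 331 to 1129 in HB9 sham libraries. Of 9 Muller glia and astrocyte markers, 5 were tested, with a median log2 change of 2.48 after crush in HB9 cells. Of these 5, 2 were higher (Vim at 3.32 and Clu at 2.56 on the log2 scale). The list of 9 summed to 758 to 2062 RPKM in HB9 crush and 214 to 268 RPKM in HB9 sham libraries, with Aqp4 and Sox9 at 0 in both groups. In Opn4 cells that list summed to 598 to 801 RPKM after crush and 253 to 334 RPKM after sham, and none of its genes passed. Microglial markers summed to at most 14.8 RPKM in any library.

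Of the 95 potassium channel genes, 68 passed the filter on low values. A further 16 were above 0 in at least 1 library but failed it, and 11 were listed at 0 in all 12 libraries (Kcna7, Kcna10, Kcnj1, Kcnj8, Kcnk5, Kcnk7, Kcnk16, Kcnk18, Kcne1, Kcne1l and Kcne4). Each library held between 46 and 58 of them at an RPKM of 1 or more, and 28 reached that level in every library. The filter kept 35 voltage-gated, 8 inward rectifier, 8 two-pore, 7 calcium-activated and 10 accessory genes. Kcnb2 stands in the table under a pair of overlapping gene models, and the second, ENSMUSG00000090498, was the only member ID not found in GENCODE release vM21. Whether counting used strand is not given in the sources used here, so reads of some members cannot be told apart from those of overlapping genes: Kcnab3 overlaps the antisense gene Gm16040 (67.2 RPKM on average), Kcna6 the opposite-strand Gm26673 (20.8 RPKM) and Kcnq5 the same-strand pseudogene Gm7658 (105 RPKM).

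Averaged over all 12 libraries, accessory subunits of voltage-gated channels held the highest levels. Kcnab2 and Kcnab3, cytoplasmic beta subunits of Kv1 channels, stood at 132 and 128 RPKM. Kcnip4 (89.3 RPKM), a calcium-binding protein of Kv4 channels, followed. Next came the pore-forming Kcna2 (Kv1.2, 82 RPKM), Kcnc4 (Kv3.4, 61.2 RPKM) and the leak channel Kcnk1 (TWIK-1, 56 RPKM). Kcnip1 (53.3 RPKM), another calcium-binding protein of Kv4 channels, stood below these. In Opn4 sham libraries the order differed, with Kcnc4 first at a mean of 99.9 RPKM, Kcnab2 at 79 RPKM and Kcnip4 at 14.3, 18.1 and 15.6 RPKM. The leading inward rectifiers were the G protein-gated Kcnj9 and the strong rectifiers Kcnj14 and Kcnj12, at 33.9, 10.1 and 5.99 RPKM, and the leading channels of the calcium-activated class were Kcnma1, its sodium-activated relative Kcnt1 and the small-conductance Kcnn2, at 44, 27 and 5.6 RPKM. Summed over all 95 genes, potassium channel RPKM came to 1244, 1229.6 and 1195 in the Opn4 crush libraries and 1109, 1224 and 1034 in the Opn4 sham libraries. The HB9 crush libraries held 1239.6, 1147 and 1155 and the HB9 sham libraries 1922, 1898 and 1820.4. The 3 HB9 sham libraries thus stood above the other 9, which overlapped with one another.

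**Figure D1:**
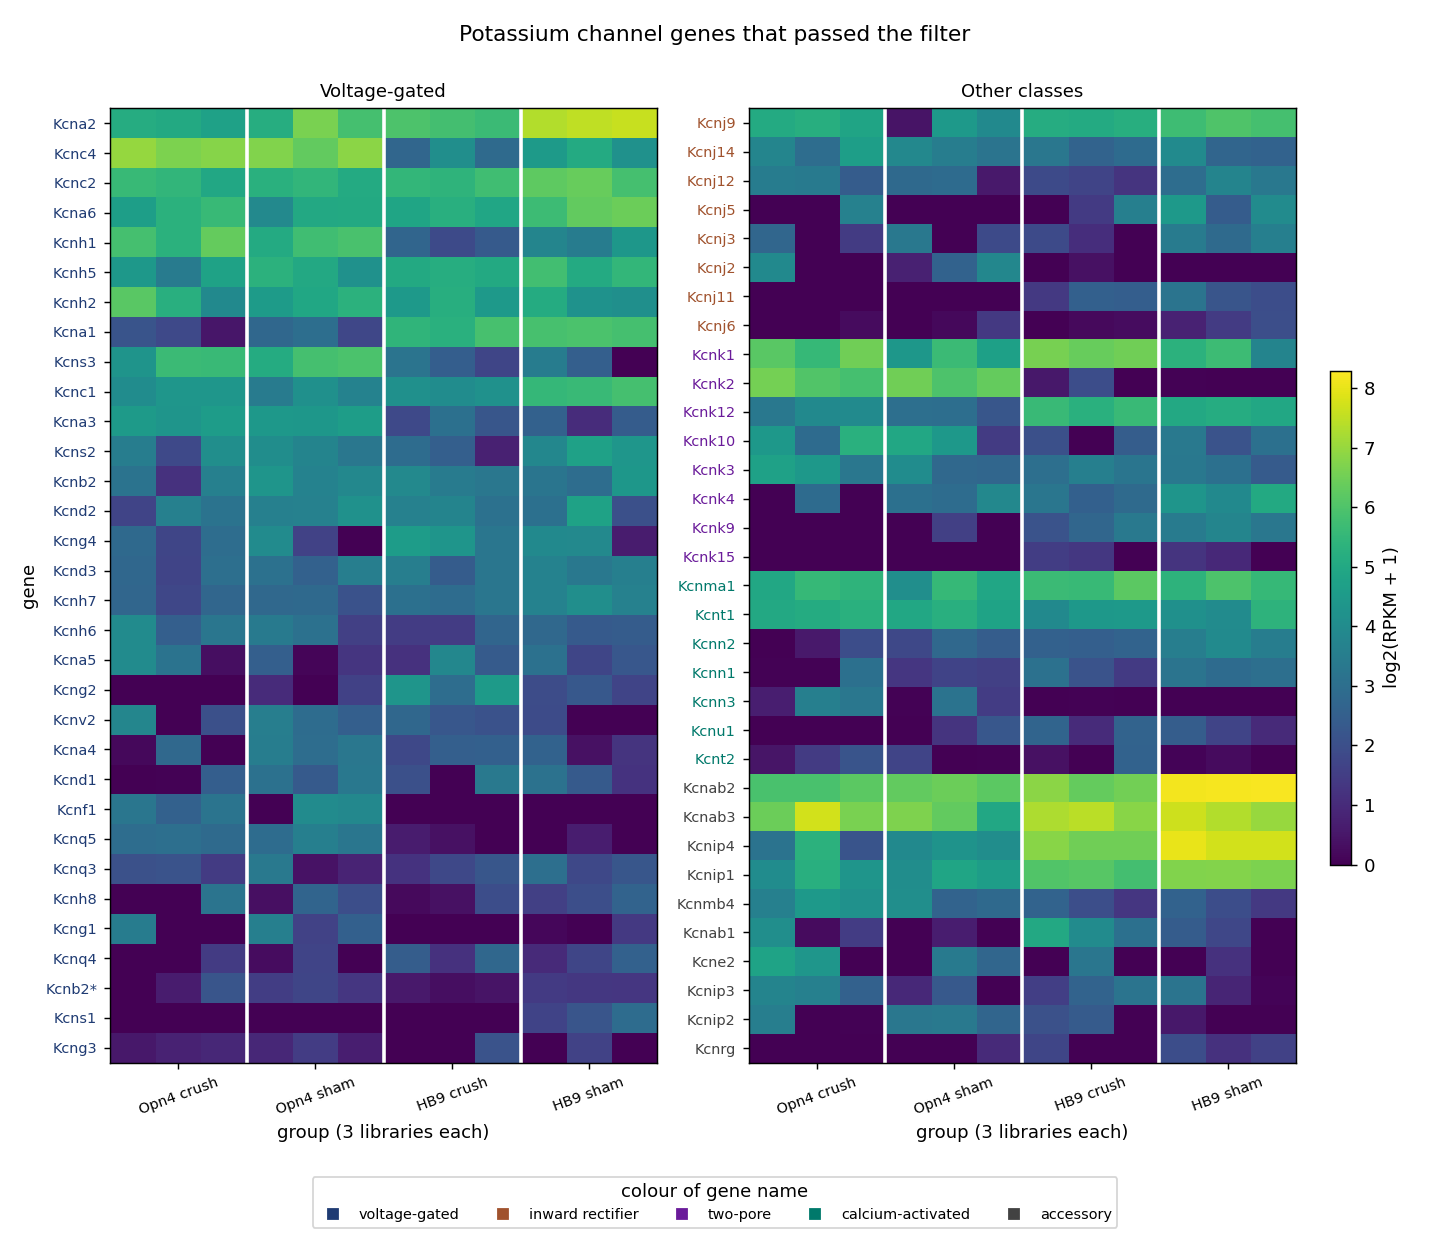
Heat map of log2(RPKM + 1) for 65 potassium channel genes that passed the filter, with 1 column per library in 4 groups of 3 and gene names coloured by class; Kcnb2* is the gene model ENSMUSG00000090498. Kcnab2, Kcnip4 and Kcna2 are brightest in the HB9 sham columns, and Kcnk2 is brighter in every Opn4 column than in any HB9 column.

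Crush was compared with sham in HB9 cells, a comparison that asks how direction-selective cells respond to axon injury. At 3 days after crush, 7 of 35 tested voltage-gated genes and Kcnab2, a beta subunit that joins Kv1 channels, were lower, and 1 voltage-gated gene was higher. The other 27 voltage-gated genes did not pass, and 13 of the 35 had a log2 change above 0. Past the threshold were 8 of the 68 tested members that fell and 1 that rose, against 2.57% of all tested genes lower and 3.84% higher (6.42% in either direction). Of those that fell, 7 were voltage-gated and 1 was accessory, and none of the inward rectifier, two-pore or calcium-activated genes passed. The 7 and the 8 include Kcns1, which met the filter only through the HB9 sham libraries and so adds no support to these counts. Among the 8 tested inward rectifiers, 7 had a log2 change below 0 and 1 above. Their median was -0.99, against -0.47 over the voltage-gated genes. The median log2 change was -0.37 over the 68 members and 0.11 over all tested genes. In 21 members every crush library was below every sham library, and in 5 every crush library was above, against 12.6% and 19.0% of all tested genes. Beside these falls, the 8 ganglion cell markers summed to 4357 to 4896 RPKM in HB9 crush and 7179 to 8062 RPKM in HB9 sham libraries, with Rbpms and Sncg lower past the threshold. The 6 ipRGC markers summed to 276 to 349 RPKM in HB9 crush and 41.5 to 60.6 RPKM in HB9 sham libraries, with Eomes (2.32 on the log2 scale, adjusted p = 0.000837) and Adcyap1 (2.77, adjusted p = 2.1e-05) higher. Of 9 amacrine markers, Slc6a9 was higher (3.60, adjusted p = 0.0123), and the list summed to 74.6 to 259.5 RPKM in HB9 crush and 67.4 to 96.3 RPKM in HB9 sham libraries. The part of these markers, and of the glial markers and Mnx1 above, in the channel values was not tested.

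Kv3 channels, which open at positive voltages and close fast enough for high firing rates, are described by Kcnc1, Kcnc4 and Kcnc2. Kcnc1 (Kv3.1; ENSMUSG00000058975, chromosome 7, 46396497 to 46438375, plus strand) was at 16.8, 15.6 and 17.3 RPKM in HB9 crush and 44.8, 47.9 and 56.2 RPKM in HB9 sham libraries, a log2 change of -1.52 ± 0.27 (adjusted p = 0.00394). The groups were far apart, with the crush libraries within 2 RPKM of one another. Kcnc4 (Kv3.4; ENSMUSG00000027895, chromosome 3, 107438303 to 107458898, minus strand) was at 5.62, 16.3 and 6.3 RPKM after crush and 22.1, 32.8 and 17.4 RPKM after sham (-1.37 ± 0.35, adjusted p = 0.0361). Here the highest crush library came close to the lowest sham library, and the call ended on leaving out HB9 sham 1 or 2, or HB9 crush 1 or 3 (largest adjusted p = 0.159). Kcnc2 (Kv3.2) was at 44, 41 and 52.7 RPKM after crush and 74, 81.8 and 57.1 RPKM after sham, without overlap, but did not pass (-0.61 ± 0.23, adjusted p = 0.16).

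Kv1 channels, which act along axons beside the nodes of Ranvier and limit excitability, showed a fall of Kcna2 and its partner Kcnab2. Kcna2 (Kv1.2; ENSMUSG00000040724, chromosome 3, 107101567 to 107106879, plus strand) was at 62.8, 54.9 and 49.4 RPKM in HB9 crush and 159.8, 180.0 and 195 RPKM in HB9 sham libraries (-1.66 ± 0.30, adjusted p = 0.00444). Each crush library held less than any sham library. Kcnab2 (the beta subunit Kvbeta2; ENSMUSG00000028931, chromosome 4, 152390742 to 152477871, minus strand) was at 116, 79.6 and 91.4 RPKM after crush and 281, 291 and 296 RPKM after sham (-1.60 ± 0.17, adjusted p = 0.000129). It was the most abundant potassium channel gene of the HB9 sham cells, and its sham libraries differed from one another by little. The table also holds Gm16334, a transcript at a mean of 28.5 RPKM on the same strand within the span of Kcnab2, and the way of counting reads shared by both is not given in the sources used here. Other Kv1 genes did not pass: Kcna1 (Kv1.1) was at 41.7, 37.7 and 58.1 RPKM after crush and 58, 60.7 and 57.3 RPKM after sham (-0.37 ± 0.45, adjusted p = 0.749). Kcna6 (Kv1.6) was at 28.7, 37 and 28.8 RPKM after crush and 50.4, 77.6 and 85.5 RPKM after sham (-1.13 ± 0.35, adjusted p = 0.081), with no overlap. The other Kv1 beta subunits did not pass, with Kcnab3 at 154, 173 and 113 RPKM after crush and 202, 161 and 127 RPKM after sham (adjusted p = 0.9), and Kcnab1 at 31.5, 15.1 and 7.4 RPKM after crush and 4.29, 2.41 and 0 RPKM after sham (adjusted p = 0.113).

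Promoters of Kcnc1, Kcnab2 and Kcna2 are shown because these members fell together after crush in HB9 cells, and that of Kcnk2 because this gene marked the Opn4 cells. They are RefSeq sequences of build GRCm38.p6, from 250 bases before to 50 after the listed start nearest to the start of the deposited gene, written 5′ to 3′. Capitals mark GC boxes (GGGCGG or its complement CCGCCC), sites for which Sp-family factors are known.
Kcnc1 (chr7:46396218-46396517, plus strand): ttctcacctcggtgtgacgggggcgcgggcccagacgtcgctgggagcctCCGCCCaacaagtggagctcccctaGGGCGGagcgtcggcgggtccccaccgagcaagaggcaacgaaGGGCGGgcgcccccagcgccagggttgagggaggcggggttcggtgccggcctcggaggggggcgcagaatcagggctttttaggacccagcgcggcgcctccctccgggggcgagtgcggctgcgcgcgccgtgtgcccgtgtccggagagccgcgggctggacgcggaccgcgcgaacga
Kcnab2 (chr4:152477500-152477799, minus strand): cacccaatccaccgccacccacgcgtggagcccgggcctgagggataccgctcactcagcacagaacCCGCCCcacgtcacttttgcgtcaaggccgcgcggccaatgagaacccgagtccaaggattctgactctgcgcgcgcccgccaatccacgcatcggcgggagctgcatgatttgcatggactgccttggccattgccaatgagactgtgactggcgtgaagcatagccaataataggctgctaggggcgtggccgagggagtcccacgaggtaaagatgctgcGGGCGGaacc
Kcna2 (chr3:107101317-107101616, plus strand): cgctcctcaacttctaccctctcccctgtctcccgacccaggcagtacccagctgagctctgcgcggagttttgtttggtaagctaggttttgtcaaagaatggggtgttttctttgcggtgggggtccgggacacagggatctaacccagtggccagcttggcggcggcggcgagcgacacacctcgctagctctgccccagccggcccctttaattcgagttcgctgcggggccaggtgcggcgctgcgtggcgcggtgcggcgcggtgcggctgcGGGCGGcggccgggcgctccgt
Kcnk2 (chr1:189343658-189343957, minus strand): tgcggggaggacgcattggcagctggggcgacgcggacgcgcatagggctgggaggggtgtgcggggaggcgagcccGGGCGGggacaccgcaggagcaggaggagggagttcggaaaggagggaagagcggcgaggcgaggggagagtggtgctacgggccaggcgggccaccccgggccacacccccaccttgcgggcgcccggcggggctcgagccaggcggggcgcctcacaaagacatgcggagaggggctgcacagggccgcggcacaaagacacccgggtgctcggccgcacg
A GC box lay in 6 of the 6 promoters found for members that fell in HB9 cells, in 36 of 69 promoters found for members (1 per gene, matched by symbol), and in 35.7% of all 32851 listed promoters. The 6 include that of Kcns1, which met the filter only through the HB9 sham libraries. The motif TGANTCA, bound by AP-1 factors such as Jun, lay in none of those 6, in 3 of the 69 and in 7.81% of all promoters. The motif TGACGTCA, bound by CREB and ATF factors, lay in none of the 69 and in 1.79% of all. Both strands were searched, and the 4 promoters shown hold neither of these motifs, so that no GC box there overlaps one. The listed start lay at most 321 bases (Kcnab2) from the deposited start for those 6 members. For some other members it lay far away, as for Kcnip4 (239244 bases) and Kcnma1 (200902 bases). The Kcnip4 window holds 1 of the 3 TGANTCA matches, so the shares over the 69 include windows away from the measured gene model's start. A match is only a run of letters, and these windows hold no information on binding.

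In the ether-a-go-go family Kcnh1 fell as well, and the M-current subunit Kcnq3 did not pass. Kcnq3 was at 1.32, 2.52 and 3.66 RPKM after crush and 7.1, 2.46 and 3.7 RPKM after sham in HB9 cells, with overlapping groups (adjusted p = 0.734). Kcnh1 (EAG1; ENSMUSG00000058248, chromosome 1, 192190784 to 192510159, plus strand) was at 5.57, 2.67 and 4.05 RPKM after crush and 12.6, 10.2 and 20.2 RPKM after sham (-1.58 ± 0.38, adjusted p = 0.0253), a call lost on leaving out HB9 sham 1 or 3, or HB9 crush 2 or 3 (largest adjusted p = 0.112). The ERG channel Kcnh2 was at 21.3, 35.5 and 21.3 RPKM after crush and 33.6, 17.7 and 16.6 RPKM after sham, and its groups overlapped (adjusted p = 0.872).

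A pair of silent subunits, which assemble with Kv2 channels and change their gating, passed in opposite directions. Kcns1 (Kv9.1; ENSMUSG00000040164, chromosome 2, 164163619 to 164171113, minus strand) was listed at 0 in all 3 HB9 crush libraries and at 2.18, 3.59 and 6.66 RPKM in HB9 sham libraries (adjusted p = 0.00273). It was also listed at 0 in all 6 Opn4 libraries. Kcns1 thus met the filter only through the HB9 sham libraries, so its calls give no support beyond these values. Kcng2 (Kv6.2; ENSMUSG00000059852, chromosome 18, 80294546 to 80364254, minus strand) was the single member that rose, at 19, 6.75 and 22 RPKM after crush and 2.79, 3.9 and 2.27 RPKM after sham (1.96 ± 0.53, adjusted p = 0.045). Its call ended in 13 of 16 alternatives. With a pseudocount of 0.1 its adjusted p was 0.293 and in voom on recovered reads 0.194, and the call ended on leaving out HB9 sham 1, 2 or 3, or HB9 crush 1 or 3 (largest adjusted p = 0.172). It also ended when libraries were rescaled by their median ratio (adjusted p = 0.0509), under which 9 members were lower and none higher; that rescaling shifted the HB9 crush effect by 0.11 on the log2 scale. Kcnc4 and Kcng2 also missed the threshold once rod level entered the model (adjusted p = 0.057 and 0.0612). In voom on recovered reads Kcnc4 and Kcnh1 missed it too (adjusted p = 0.0829 and 0.113). The Kcnc4 call ended in 9 of 16 alternatives and that of Kcnh1 in 5 of 16. Kcnv2, a silent subunit known from photoreceptors, was at 5.88, 3.75 and 3.28 RPKM after crush and 2.7, 0.00795 and 0 RPKM after sham (adjusted p = 0.275). Rod markers summed to a median of 697 RPKM in HB9 crush and 472 RPKM in HB9 sham libraries, with overlap, and their part in the Kcnv2 values was not tested.

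**Figure D2:**
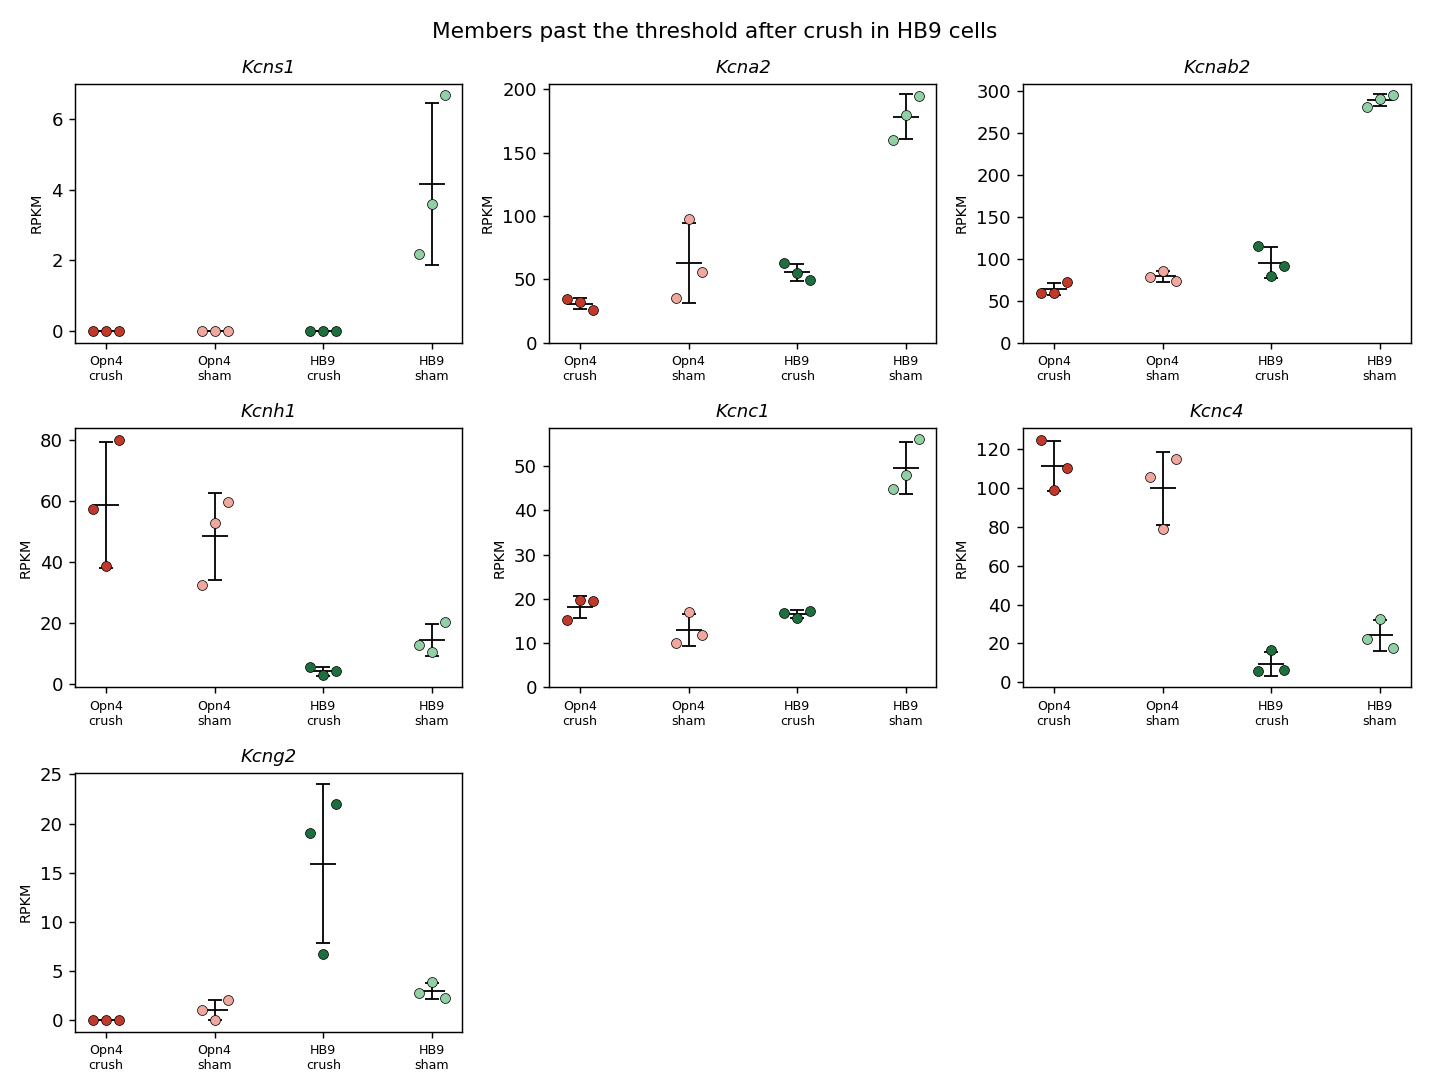
RPKM of 7 potassium channel genes past the threshold after crush in HB9 cells, in all 4 groups; points are libraries, and the bar and whiskers are mean and SD (n = 3). For 6 genes the HB9 crush points lie below the HB9 sham points, and for Kcng2 they lie higher.

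Outside these families the HB9 crush effect gave no further call. Kcnip4 was at 113, 90.2 and 89 RPKM in HB9 crush and 258, 210.3 and 212 RPKM in HB9 sham libraries (-1.21 ± 0.56, adjusted p = 0.266), and Kcnip1 at 64.7, 69.3 and 56 RPKM after crush and 104, 106 and 101 RPKM after sham (-0.71 ± 0.30, adjusted p = 0.222). Both KChIP genes had groups that did not overlap. Kcnj9 (GIRK3), a subunit of the channels opened by G proteins, was at 34.1, 32.8 and 36.1 RPKM after crush and 52.4, 63.9 and 56.2 RPKM after sham (-0.72 ± 0.74, adjusted p = 0.691). Its family member Kcnj3 (GIRK1) was at 2.61, 1.11 and 0.0145 RPKM after crush and 9.97, 6.27 and 10.9 RPKM after sham (adjusted p = 0.14). The leak channels Kcnk1 and Kcnk12 lay above sham in every crush library: Kcnk1 was at 96.4, 82.4 and 90.2 RPKM after crush and 39.3, 50.4 and 12.4 RPKM after sham (1.58 ± 0.46, adjusted p = 0.0614). Kcnk12 was at 48.2, 37.2 and 48.4 RPKM after crush and 31.5, 34.2 and 30.6 RPKM after sham (0.45 ± 0.31, adjusted p = 0.5). Kcnma1, the large-conductance BK channel, had overlapping groups at 50, 47 and 73.5 RPKM after crush and 39.9, 61.8 and 45.9 RPKM after sham (adjusted p = 0.836). By class, voltage-gated genes summed to 445, 426 and 448 RPKM in HB9 crush and 740.2, 799 and 779 RPKM in HB9 sham libraries. Two-pore channels summed to 169, 148 and 167 RPKM after crush and 119, 123 and 95.2 RPKM after sham. Accessory genes summed to 366 to 492 RPKM after crush and 739 to 868 RPKM after sham. Inward rectifiers summed to 48.4 to 61.2 RPKM after crush and 98.0 to 113.8 RPKM after sham. Calcium-activated genes summed to 76.7 to 112.2 RPKM after crush and 80.3 to 104.5 RPKM after sham, with overlap. The voltage-gated, accessory and inward rectifier sums after crush lay below those after sham and the two-pore sums above, each without overlap.

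The same comparison in Opn4 cells asks how photosensitive ganglion cells respond. No potassium channel gene passed the threshold in the limma fit, against 1.11% of all tested genes (0.69% higher and 0.421% lower). Of the 68 tested members, 13 had an unadjusted p under 0.05, against 2619 of 18269 genes, and limma voom on reads recovered from the RPKM also called 0. The median log2 change was -0.01 over the members and -0.02 over all tested genes. In 3 members every crush library was above every sham library and in 6 below, against 7.38% and 7.33% of all tested genes. Within-group spread was larger in Opn4 than in HB9 libraries for the members, with a median within-group SD of 0.65 in Opn4 crush and 0.51 in Opn4 sham on the log2 scale, against 0.37 in HB9 crush and 0.43 in HB9 sham. Over all tested genes the same medians were 0.51 in Opn4 crush and 0.47 in Opn4 sham, against 0.34 in HB9 crush and 0.33 in HB9 sham. The 8 ganglion cell markers summed to 3798 to 4469 RPKM in Opn4 crush and 4715 to 5162 RPKM in Opn4 sham libraries. Of these 8, Rbpms was lower after crush (-0.78 on the log2 scale, adjusted p = 0.0409). Of 6 ipRGC markers, Trpc7 was lower (-2.08, adjusted p = 0.0209). The part of these markers in the channel values was not tested.

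Members that fell in HB9 cells had the following values in Opn4 cells, where none passed. Kcnc1 was at 15.2, 19.7 and 19.6 RPKM in Opn4 crush and 10.1, 17.1 and 11.7 RPKM in Opn4 sham libraries (0.48 ± 0.27, adjusted p = 0.447), with overlap. Kcnc4 was at 125, 99.2 and 110.3 RPKM after crush and 106, 78.7 and 115 RPKM after sham (0.17 ± 0.35, adjusted p = 0.872). Kcnab2 was at 59.6, 59.8 and 72.4 RPKM after crush and 77.8, 85.7 and 73.6 RPKM after sham (-0.31 ± 0.17, adjusted p = 0.457), where the groups did not overlap but lay close. Kcna2 was at 34.5, 32.2 and 25.9 RPKM after crush and 35.3, 97.7 and 56.2 RPKM after sham (-0.90 ± 0.30, adjusted p = 0.187), and the largest of its sham libraries stood well above the other 2. Leaving out Opn4 sham 1, it passed (-1.25, adjusted p = 0.044). Kcnh1 was at 57.1, 38.6 and 79.9 RPKM after crush and 32.4, 52.8 and 59.7 RPKM after sham, with overlap (adjusted p = 0.801).

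Single libraries decided whether any Opn4 crush call was made. Leaving out Opn4 crush 2, the following 3 genes were lower. Kcna4 (Kv1.4) was at 0.143, 5.98 and 0 RPKM in Opn4 crush and 10.5, 6.89 and 8.69 RPKM in Opn4 sham libraries (adjusted p = 0.0323 without that library). Kcnip4 was at 7.89, 39.6 and 3.5 RPKM after crush and 14.3, 18.1 and 15.6 RPKM after sham (adjusted p = 0.0395), and the leak channel Kcnk4 (TRAAK) at 0, 6.53 and 0 RPKM after crush and 7.36, 6.6 and 13.7 RPKM after sham (adjusted p = 0.00959). Leaving out Opn4 crush 1, Kcnip2 was lower, at 10.8, 0 and 0.0272 RPKM after crush and 8.72, 9.18 and 5.59 RPKM after sham (adjusted p = 0.0446). Leaving out both Opn4 libraries that stood apart, Kcnj2 (Kir2.1) was lower, at 14.4, 0 and 0 RPKM after crush and 0.706, 5.16 and 13.3 RPKM after sham (adjusted p = 0.013). Kcnj9 had the Opn4 crush libraries above all sham libraries, at 32.8, 35.5 and 27.5 RPKM after crush and 0.347, 21 and 14.5 RPKM after sham (2.09 ± 0.74, adjusted p = 0.218), with Opn4 sham 1 near 0. Kcnip3, a KChIP that also represses transcription, was at 12.4, 11.2 and 5.01 RPKM after crush and 0.923, 4.01 and 0 RPKM after sham (adjusted p = 0.23).

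The difference between the crush effects, Opn4 minus HB9, was tested as an interaction. It passed for 2 of the 68 members, Kcnc1 and Kcnab2, both positive, against 0.29% of all tested genes in that direction and 0.816% in either. For Kcnc1 the difference was 2.00 ± 0.38 (adjusted p = 0.0291), from a crush effect of 0.48 in Opn4 cells and -1.52 in HB9 cells. For Kcnab2 it was 1.30 ± 0.24 (adjusted p = 0.0291), from -0.31 in Opn4 cells and -1.60 in HB9 cells. Kcnc1 lost its call on leaving out Opn4 sham 3, or Opn4 crush 3, or HB9 sham 1, 2 or 3, or HB9 crush 1, 2 or 3 (largest adjusted p = 0.0947), as Kcnab2 did on leaving out Opn4 sham 3, or Opn4 crush 3, or HB9 sham 1, 2 or 3, or HB9 crush 2 or 3 (largest adjusted p = 0.0905). Leaving out both Opn4 libraries that stood apart, the adjusted p was 0.0392 for Kcnc1 and 0.0523 for Kcnab2. The other members that fell in HB9 cells had differences that did not pass, among them Kcnc4 at 1.54 ± 0.50 (adjusted p = 0.202) and Kcna2 at 0.76 ± 0.42 (adjusted p = 0.484).

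**Figure D3:**
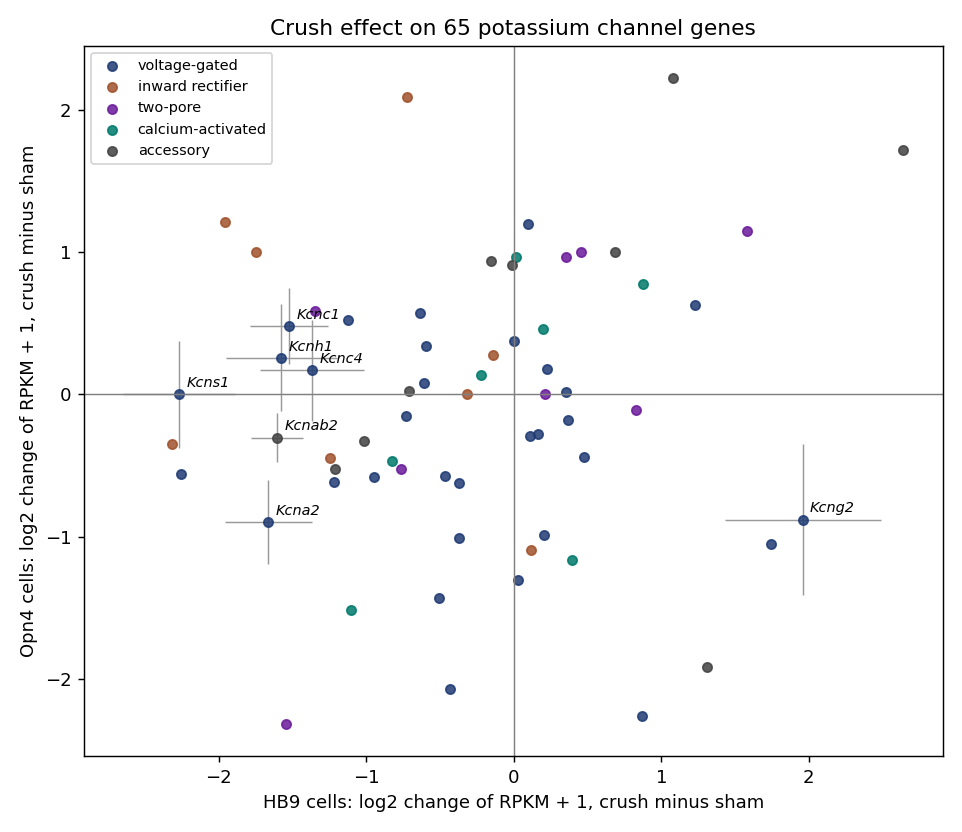
Log2 change of RPKM + 1 after crush in HB9 cells (horizontal) and Opn4 cells (vertical) for 65 tested potassium channel genes, coloured by class; whiskers on the 7 named genes are SE. Leaving aside Kcns1, which is listed at 0 in a whole group, the named genes that fell in HB9 cells lie between -1.66 and -1.37 there and between -0.90 and 0.48 in Opn4 cells.

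The uninjured classes were compared to see which channels set them apart. Of the 68 tested members, 7 were higher and 16 lower in Opn4 sham than in HB9 sham cells, against 5.82% and 5.93% of all tested genes (11.8% in either direction). These counts include members that met the filter only through the class where they were higher, such as Kcnk2, Kcns1 and Kcnj11. Those lower included the Kv1 genes Kcna1, Kcna2 and Kcna6, the Kv3 genes Kcnc1 and Kcnc2, and the KChIP genes Kcnip1 and Kcnip4. Also lower were Kcnab2, Kcns1, the GIRK genes Kcnj9 and Kcnj5, the KATP gene Kcnj11 and the leak channels Kcnk12 and Kcnk9. Higher were the TREK leak channel Kcnk2, the Kv1 gene Kcna3, the Kv3 gene Kcnc4, the KChIP gene Kcnip2, Kcnh1, Kcnq5 and Kcns3. The median log2 difference was -0.62 over the members and 0.01 over all tested genes. Rod markers moved with class, with a median log2 difference of 1.34 and 1 of 15 past the threshold. Other markers moved with class too. Of 5 tested glial markers, Vim (3.17 on the log2 scale) was higher in Opn4 sham cells. Of 9 tested amacrine markers, Gad2 (3.86) and Chat (2.56) were higher there and Pax6 (-1.32) was lower, with a list median of 0.17. The 8 ganglion cell markers summed to 4715 to 5162 RPKM in Opn4 sham and 7179 to 8062 RPKM in HB9 sham libraries, with 4 lower. The part of these markers in the channel values was not tested. Adding the rod mean to the model gave 5 members higher and 11 lower, and calls that ended with this rod term are named below.

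Kcnk2 (TREK-1; ENSMUSG00000037624, chromosome 1, 189207931 to 189343832, minus strand), a leak channel gated by stretch, heat and lipids, differed most. It was at 88.6, 61.8 and 80.3 RPKM in Opn4 sham and 0.023, 0 and 0 RPKM in HB9 sham libraries (6.26 ± 0.47, adjusted p = 4.11e-06), and the call held in every alternative run. After crush it was at 94, 64.6 and 57.1 RPKM in Opn4 cells and 0.454, 2.93 and 0 RPKM in HB9 cells (5.32 ± 0.47, adjusted p = 1.79e-05). The 6 Opn4 libraries thus stood far above the 6 HB9 libraries, and crush made no called difference in either class. Kcnk2 met the filter only through the Opn4 libraries, so its calls between classes give no support beyond these values. Its close relative Kcnk10 (TREK-2) was at 30.4, 20.5 and 1.69 RPKM in Opn4 sham and 9.15, 3.37 and 7.33 RPKM in HB9 sham libraries, with overlap (adjusted p = 0.677). Other two-pore channels went the opposite way. Kcnk12 (THIK-2) was at 7.19, 6.94 and 3.68 RPKM in Opn4 sham and 31.5, 34.2 and 30.6 RPKM in HB9 sham libraries (-2.30 ± 0.31, adjusted p = 0.000359). Kcnk9 (TASK-3), an acid-sensitive leak channel, was at 0, 1.97 and 0 RPKM in Opn4 sham and 9.91, 12.8 and 8.7 RPKM in HB9 sham libraries (-2.98 ± 0.51, adjusted p = 0.00199). Kcnk9 met the filter only through the HB9 libraries, so its calls give no support beyond the values.

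Among voltage-gated genes, Kcna1 (Kv1.1; ENSMUSG00000047976, chromosome 6, 126636463 to 126645801, minus strand) was at 5.79, 7.03 and 2.41 RPKM in Opn4 sham and 58, 60.7 and 57.3 RPKM in HB9 sham libraries (-3.39 ± 0.45, adjusted p = 0.000336). Its listed span overlaps that of Kcna5 on the same strand, a gene at a mean of 5.15 RPKM. Kcna2 was at 35.3, 97.7 and 56.2 RPKM in Opn4 sham and 159.8, 180.0 and 195 RPKM in HB9 sham libraries (-1.60 ± 0.30, adjusted p = 0.00346), a call that ended with the rod term (adjusted p = 0.0525). Kcna6 differed by -1.48 ± 0.35 (adjusted p = 0.0148), a call lost on leaving out HB9 sham 2 or 3 (largest adjusted p = 0.0672) or with the rod term (adjusted p = 0.291). Kcna3 (Kv1.3), best known from T cells, was higher instead, at 20.3, 19.8 and 23.4 RPKM in Opn4 sham and 5, 1.09 and 4.35 RPKM in HB9 sham libraries (2.44 ± 0.45, adjusted p = 0.00352). The Kv1 family was thus split between the classes.

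The Kv3 genes Kcnc1 and Kcnc4 differed in opposite directions. Kcnc1 was at 10.1, 17.1 and 11.7 RPKM in Opn4 sham and 44.8, 47.9 and 56.2 RPKM in HB9 sham libraries (-1.88 ± 0.27, adjusted p = 0.000543). Kcnc4 was at 106, 78.7 and 115 RPKM in Opn4 sham and 22.1, 32.8 and 17.4 RPKM in HB9 sham libraries (2.04 ± 0.35, adjusted p = 0.00223). Kcnc2 differed by -0.88 ± 0.23 (adjusted p = 0.0263), a call lost on leaving out Opn4 sham 1 or 3, or HB9 sham 1 or 2 (largest adjusted p = 0.117) and with the rod term (adjusted p = 0.0502).

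Slower voltage-gated channels and silent subunits also differed. Kcnq5 (Kv7.5), an M-current subunit, was at 6.6, 10.9 and 8.47 RPKM in Opn4 sham and 0.0116, 0.586 and 0 RPKM in HB9 sham libraries (3.02 ± 0.40, adjusted p = 0.000345). Kcnh1 was at 32.4, 52.8 and 59.7 RPKM in Opn4 sham and 12.6, 10.2 and 20.2 RPKM in HB9 sham libraries (1.69 ± 0.38, adjusted p = 0.0106), a call lost on leaving out Opn4 sham 3, or HB9 sham 2 (largest adjusted p = 0.0543). The silent subunit Kcns3 (Kv9.3) was at 33.1, 56.2 and 61.2 RPKM in Opn4 sham and 10.1, 4.71 and 0 RPKM in HB9 sham libraries (3.64 ± 0.74, adjusted p = 0.00613), a call lost with the rod term (adjusted p = 0.106) or voom (0.0638). Kcns1, listed at 0 in all Opn4 sham libraries, was lower there than in HB9 sham libraries (adjusted p = 0.00169), the only group through which it met the filter. Kcnd2, the main Kv4 gene of many neurons, was at 11.3, 11.5 and 17.2 RPKM in Opn4 sham and 7.38, 26.4 and 3.06 RPKM in HB9 sham libraries and did not pass (adjusted p = 0.679).

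Among accessory subunits, 3 were lower and 1 was higher in Opn4 sham cells. Kcnip4 (ENSMUSG00000029088, chromosome 5, 48389502 to 49524904, minus strand) was at 14.3, 18.1 and 15.6 RPKM in Opn4 sham and 258, 210.3 and 212 RPKM in HB9 sham libraries (-3.74 ± 0.56, adjusted p = 0.000833). Kcnip1 was at 15.7, 28.3 and 23.4 RPKM in Opn4 sham and 104, 106 and 101 RPKM in HB9 sham libraries (-2.20 ± 0.30, adjusted p = 0.000456). Both sets of libraries were far apart. Kcnab2 was at 77.8, 85.7 and 73.6 RPKM in Opn4 sham and 281, 291 and 296 RPKM in HB9 sham libraries (-1.86 ± 0.17, adjusted p = 2.03e-05). Kcnip2 was higher, at 8.72, 9.18 and 5.59 RPKM in Opn4 sham and 0.436, 0 and 0 RPKM in HB9 sham libraries (2.94 ± 0.87, adjusted p = 0.0446). That call ended on leaving out Opn4 sham 1, 2 or 3, or HB9 sham 1, 2 or 3 (largest adjusted p = 0.126), and with the rod term (adjusted p = 0.517).

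Inward rectifiers passed in 3 of 8 tested genes, all lower in Opn4 sham cells. Kcnj11 (Kir6.2), the pore of the channels closed by ATP, was listed at 0 in all 6 Opn4 libraries, against 8.09, 3.56 and 2.92 RPKM in HB9 sham libraries (adjusted p = 0.00341). Abcc8, the sulphonylurea receptor that completes this channel, averaged 0.603 ± 1.03 RPKM in Opn4 sham and 38.1 ± 16.4 RPKM in HB9 sham libraries (-4.70 ± 0.70, adjusted p = 0.000754). Kcnj11 and Abcc8 met the filter only through the HB9 libraries, so their calls give no support beyond these values. The GIRK subunit Kcnj9 differed by -2.92 ± 0.74 (adjusted p = 0.0217), and Kcnj5 (GIRK4) was listed at 0 in all Opn4 sham libraries, against 21.2, 4.38 and 14.9 RPKM in HB9 sham libraries (adjusted p = 0.0358). Kcnj9 lost its call on leaving out HB9 sham 1, 2 or 3 (largest adjusted p = 0.0729), as Kcnj5 did on leaving out Opn4 sham 1, 2 or 3, or HB9 sham 1 or 3 (largest adjusted p = 0.126). With the rod term neither passed (adjusted p = 0.284 and 0.331). The Kcnj9 call ended in 7 of 16 alternatives, among them a fit of only the groups compared (adjusted p = 0.115). Opn4 sham 1 was near 0 for Kcnj9, as given above. Kcnj10 (Kir4.1), the potassium channel of Muller glia, was at 0.299 RPKM or less in every library. No gene of the calcium-activated class passed: Kcnma1 was at 16.1, 45.8 and 29.4 RPKM in Opn4 sham and 39.9, 61.8 and 45.9 RPKM in HB9 sham libraries (adjusted p = 0.189), and the small-conductance channel Kcnn2 at 2.48, 6.02 and 4.5 RPKM in Opn4 sham and 10.7, 14.6 and 10.5 RPKM in HB9 sham libraries (adjusted p = 0.122).

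**Figure D4:**
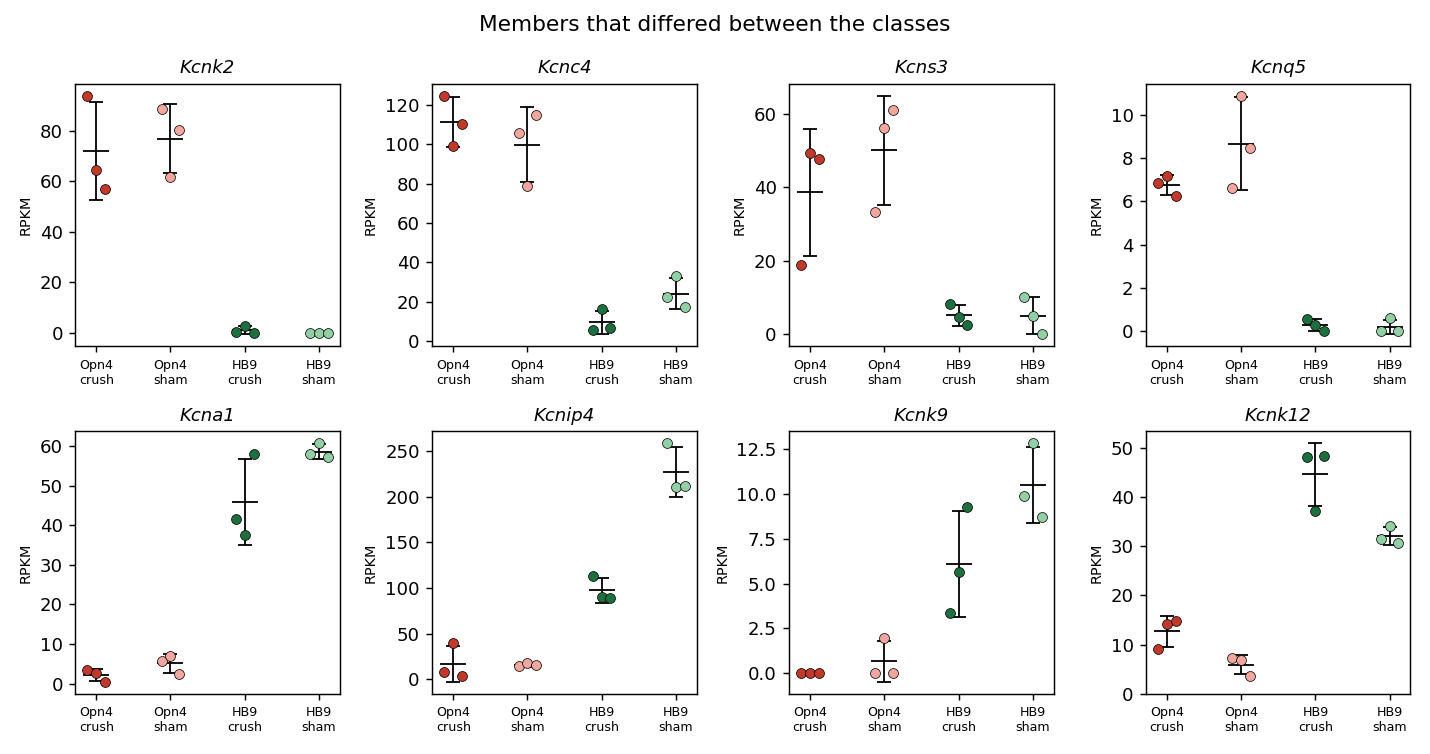
RPKM of 8 potassium channel genes that differed between Opn4 and HB9 cells, in all 4 groups; points are libraries, and the bar and whiskers are mean and SD (n = 3). Kcnk2, Kcnc4, Kcns3 and Kcnq5 are higher in the Opn4 groups, and Kcna1, Kcnip4, Kcnk9 and Kcnk12 in the HB9 groups.

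The injured classes were compared in the same way. Of the 68 tested members, 8 were higher and 9 lower in Opn4 crush than in HB9 crush cells, against 5.12% and 7.6% of all tested genes (12.7% in either direction). These counts also include members that met the filter only through the class where they were higher, such as Kcnk2, Kcnf1 and Kcnj11. Beside these calls, 1 of 9 tested amacrine markers (Gad2, 2.98), 1 of 9 bipolar markers (Gng13, 2.54) and 1 of 15 rod markers (Nr2e3, 2.39) were higher in Opn4 crush cells on the log2 scale. The medians of these lists were -0.09, 1.24 and 1.27. Of 5 tested glial markers, Clu (-1.16) was lower. Of 8 ganglion cell markers, Pou4f1 (-2.61), Slc17a6 (-2.04) and Nefl (-0.95) were lower and Sncg (0.89) was higher. The part of all these markers in the channel values was not tested. This comparison and the one after sham use different libraries, but both share libraries with the crush effects above, so their values are given side by side. Kcnc4 was at 125, 99.2 and 110.3 RPKM in Opn4 crush and 5.62, 16.3 and 6.3 RPKM in HB9 crush libraries, a log2 difference of 3.57 ± 0.35 (adjusted p = 4.59e-05), against 2.04 after sham. Kcnh1 was at 57.1, 38.6 and 79.9 RPKM in Opn4 crush and 5.57, 2.67 and 4.05 RPKM in HB9 crush libraries (3.53 ± 0.38, adjusted p = 7.97e-05), against 1.69 after sham. For Kcnc1 the difference was 0.12 ± 0.27 after crush (adjusted p = 0.824) and -1.88 after sham. For Kcnab2 it was -0.56 ± 0.17 (adjusted p = 0.0504) after crush and -1.86 after sham. Of these changes between surgeries, those of Kcnc1 and Kcnab2 passed the interaction test given above.

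Most of the remaining calls after crush were genes already described. Kcna1 differed by -4.03 ± 0.45 (adjusted p = 0.000108), Kcnip4 by -3.06 ± 0.56 (adjusted p = 0.00357), and Kcnk12 by -1.75 ± 0.31 (adjusted p = 0.0027). Kcnk9 was listed at 0 in all Opn4 crush libraries, against 3.38, 5.63 and 9.25 RPKM in HB9 crush libraries (adjusted p = 0.0038). Kcnq5 (2.62), Kcna3 (2.11), Kcnj11 (listed at 0 in Opn4 crush, adjusted p = 0.00858) and Kcnip1 (-1.47) passed again, though Kcna3 and Kcnip1 did not with the rod term (adjusted p = 0.0722 and 0.0973). Kcns3, Kcnmb4, Kcnn2 and Kcnu1, described next, also missed the threshold with that term (adjusted p = 0.234, 0.224, 0.349 and 0.214). Kcns3 differed by 2.72, a call lost on leaving out Opn4 crush 2 or 3, or HB9 crush 2 or 3 (largest adjusted p = 0.114). The Kcns3 call ended in 9 of 16 alternatives, among them a pseudocount of 0.1 (adjusted p = 0.177) and voom (0.0899). Kcng2 was listed at 0 in all 3 Opn4 crush libraries, against 19, 6.75 and 22 RPKM in HB9 crush libraries (adjusted p = 0.000428). Kcnf1 (Kv5.1), another silent subunit, was at 8.55, 4.95 and 8.12 RPKM in Opn4 crush libraries and listed at 0 in all 6 HB9 libraries (adjusted p = 0.0298), a call lost on leaving out Opn4 crush 1 or 3, or HB9 crush 1, 2 or 3 (largest adjusted p = 0.0847). Opn4 sham 1 was also near 0 for Kcnf1, at 0.00912 RPKM. Kcnf1 met the filter only through Opn4 libraries, so its call gives no support beyond these values. Kcnmb4, the BK beta subunit of neurons, was at 11.3, 21.3 and 17.5 RPKM in Opn4 crush and 5.17, 2.94 and 1.48 RPKM in HB9 crush libraries (2.13 ± 0.53, adjusted p = 0.0193), a call lost on leaving out Opn4 crush 2, or HB9 crush 2 or 3 (largest adjusted p = 0.0837). Kcnn2 was at 0, 0.49 and 2.87 RPKM in Opn4 crush and 4.98, 4.69 and 5.28 RPKM in HB9 crush libraries (-1.74 ± 0.51, adjusted p = 0.0416), a call lost on leaving out Opn4 crush 1 or 2, or HB9 crush 1, 2 or 3 (largest adjusted p = 0.125). The Kcnn2 call ended in 12 of 16 alternatives, among them a pseudocount of 0.1 (adjusted p = 0.0557) and voom (0.0624). Kcnu1, in mouse best known from sperm, was listed at 0 in all Opn4 crush libraries, against 5.35, 1.02 and 5.22 RPKM in HB9 crush libraries (adjusted p = 0.0461), a call lost on leaving out Opn4 crush 1, 2 or 3, or HB9 crush 1 or 3 (largest adjusted p = 0.158). The Kcnu1 call ended in 12 of 15 alternatives.

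**Figure D5:**
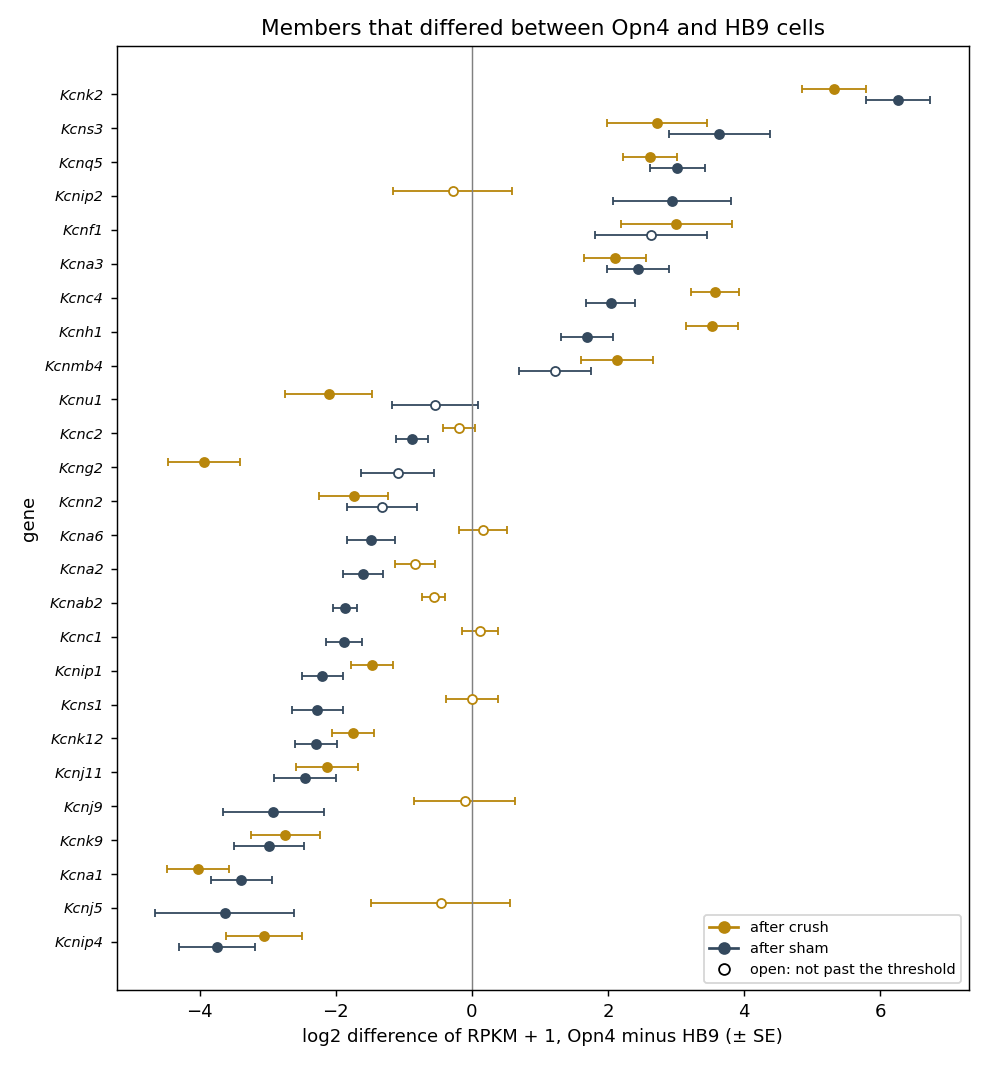
Log2 difference of RPKM + 1 between Opn4 and HB9 cells, after crush and after sham, for 26 potassium channel genes past the threshold in either comparison; whiskers are SE and open points did not pass. Kcnk2 lies farthest to the right after both surgeries, and Kcnc1 lies at 0.12 after crush and -1.88 after sham. Points of genes listed at 0 in a whole group, such as Kcns1, depend on the pseudocount and are no bound.

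Genes outside the Kcn names that build or anchor potassium channels were taken from a list of 28, of which 24 were tested. After crush none passed in Opn4 cells, against 1.11% of all tested genes, and in HB9 cells 2 were lower and none higher, against 2.57% and 3.84%. The scaffold Dlg2 was among them, at 27.2 ± 4.02 RPKM in HB9 crush and 58.9 ± 7.46 RPKM in HB9 sham libraries (-1.09 ± 0.29, adjusted p = 0.0448). Between the uninjured classes 2 were higher and 4 lower in Opn4 cells, against 5.82% and 5.93% of all tested genes. Cntnap2 (Caspr2), which clusters Kv1 channels beside nodes, averaged 77.5 ± 25.1 RPKM in Opn4 sham and 32.1 ± 1.34 RPKM in HB9 sham libraries (1.20 ± 0.23, adjusted p = 0.00413), while Kcna1 and Kcna2 differed the other way. Dpp6, an auxiliary subunit of Kv4 channels, averaged 41.6 ± 4.48 RPKM in Opn4 sham and 101 ± 12.3 RPKM in HB9 sham libraries (-1.26 ± 0.22, adjusted p = 0.00264). Adam23, which binds Lgi proteins, differed by -2.08 ± 0.35 (adjusted p = 0.00173), and the scaffolds Dlg1 and Dlg2 differed in opposite directions, by 2.23 and -1.27. After crush 3 were higher and 2 lower in Opn4 than in HB9 cells, against 5.12% and 7.6% of all tested genes, Cntn2 at 1.56 and Abcc8 at -3.46 among them.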

How the data were processed

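The authors deposited 1 table of RPKM values, with 1 column per library and no pooled columns. The tools used, per the submitters' processing notes, were edgeR 3.14.0, TopHat2 2.0.11 and Bowtie, with the build mm10. How reads were counted, whether strand was used and which lengths entered the RPKM are not given in the sources used here. Libraries were matched to groups through their labels. In genes under 200 bp, RPKM multiplied by length came in even steps whose size gave each library's scaling total (99.3% to 99.7% of values within 0.01 read of whole). Reads recovered in this way summed to 226.7% to 244.2% of the totals, so they serve in 1 alternative only.

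Values were tested as log2(RPKM + 1) in limma 3.58.1 (R 4.3.3; lmFit, contrasts.fit, eBayes with trend) with 4 group means over 12 libraries, two-sided, adjusted over 18269 genes. The fit was tested on simulated data. Python 3.11.15 and matplotlib 3.10.9 made summaries and plots. The members and lists were chosen with earlier results of these data known. Named were, for each comparison, the members past the threshold (the 12 largest where more passed), the 3 most abundant of each class, 18 members fixed by name, and those at 0; a few that the rule would name are not reported here, though counts and sums include them. Kcnj2, Kcna4, Kcnk4, Kcna6, Kcnk10 and Kcnab1 and other members outside that rule were chosen after their values were seen. The labels do not say whether libraries share animals, so p-values measure the spread between these libraries. Alternatives were the pseudocount, the filter, scaling, the groups fitted, library weights, a replicate block, a rod covariate, voom and leaving out libraries.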

Additional observations from a re-analysis of the deposited data

Results flagged for a closer look

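The difference between the crush effects of the classes, the interaction term of the limma fit, passed the threshold for a pair of potassium channel genes. Each call ended in 9 of 21 alternatives, among them the replicate block and most fits with 1 library left out. For Kcnc1 the effect in Opn4 cells minus that in HB9 cells was 2.00 ± 0.38 (adjusted p = 0.0291). For Kcnab2 it was 1.30 ± 0.24 (adjusted p = 0.0291). In HB9 cells the 3 crush libraries lay below all 3 sham libraries for both genes. In Opn4 cells the groups overlapped for Kcnc1 and did not overlap for Kcnab2.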

How the results depend on the processing

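The counts of potassium channel genes past the threshold depended on the fit for both crush effects and their difference. In HB9 cells the count was 9, but 15 with only the groups compared in the fit and 21 with array weights, and 5 to 7 when 1 library was left out. In Opn4 cells it was 0, with 0 to 3 when 1 library was left out and 1 without both Opn4 libraries numbered 1, an alternative chosen after seeing the data. The interaction count was 2, with 0 to 3 when 1 library was left out. The counts between classes stayed within 1.5 times, at 16 to 30 after sham and 12 to 18 after crush over the alternatives run. Without both Opn4 libraries numbered 1 the counts were 11 for crush in HB9 cells, 2 for the difference, 25 after sham and 18 after crush. Replicate numbers did not pair the libraries, since deviations of same-numbered libraries correlated at -0.022 to 0.081, and a replicate block gave 0 calls for the interaction (adjusted p = 0.0553 for Kcnc1 and 0.0645 for Kcnab2), 7 in HB9 cells, 25 after sham and 17 after crush. Of the 51 gene calls, 28 held in every alternative that kept the gene, and none reversed. Among them were Kcnc1, Kcna2 and Kcnab2 for crush in HB9 cells. Kcns1 is counted too, but it met the filter only through the HB9 sham libraries. It dropped out when an RPKM of at least 5 was asked for, so 15 alternatives covered it. Kcnk2, Kcnk9 and Kcnj11 are counted as well, though each met the filter only through the cell class where it was higher. Other settings also ended calls: Kcnc4 and Kcng2 for crush in HB9 cells, Kcnip2, Kcnj5 and Kcnj9 between classes after sham, and Kcnf1, Kcns3, Kcnn2 and Kcnu1 after crush did not pass without the filter on low values. After sham, a pseudocount of 0.1 ended the calls of Kcnip2 and Kcnj9 (adjusted p = 0.0807 and 0.0536). Voom ended those of Kcnip2 and Kcnj5 after sham (0.0898 and 0.0578). The cause was not tested. Replicates were 3 per group, and genes near 0 RPKM rest on few reads and on the pseudocount.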
